A study of Mus musculus with 3 samples.

Results

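Class II-high alveolar macrophages are the macrophages of the mouse airspace that devoted the largest share of their RNA to the genes of MHC class II. They were chosen in single-cell RNA sequencing of bronchoalveolar lavage cells. A barcode was ranked if it held at least 5000 unique molecular identifiers (UMIs, each 1 captured RNA molecule) and at least 300 genes, and if at most 10% of its UMIs were mitochondrial. It also needed a UMI of at least 3 of 8 alveolar macrophage genes (Marco, Siglecf, Krt79, Ear2, Atp6v0d2, Bhlhe41, Chil3 and Pparg) and none of the dendritic cell genes Flt3 and Ccr7. Of 15809 barcodes, 10796 were ranked by the share of their UMIs that came from H2-Aa, H2-Ab1, H2-Eb1 and Cd74. The top 10% were kept, and 2 cells at 2% or more were then dropped, which left 1078 cells. The other 9716 ranked macrophages are called the rest.

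The cells came from wild-type (WT) C57BL/6J mice aged 12 weeks. One group breathed filtered air, a second ozone at 1 ppm and the third ozone at 1.5 ppm, each for 3 h, and lavage followed 22 to 24 h after exposure ended. Lavage cells of 3 to 4 mice were pooled into 1 library per group, so dose, pool and library preparation cannot be told apart, and no difference between libraries was tested. The libraries held 5307, 3233 and 7269 barcodes and 59359742, 42825676 and 95403078 UMIs, in the order air, 1 ppm and 1.5 ppm, which is kept below. Levels are UMIs summed over the cells of a library and expressed per 1000000 UMIs (CPM). Intervals are 95% intervals (exact Poisson for levels, exact conditional for ratios, Clopper-Pearson for shares of cells) and cover counting error only.

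MHC class II molecules present peptides from engulfed material to CD4+ T cells. H2-Aa and H2-Ab1 encode the chains of I-A and H2-Eb1 encodes the beta chain of I-E. Only RNA was measured here, so whether I-A or I-E molecules formed was not seen. Cd74 encodes the invariant chain that escorts class II molecules to the endosome. There the H2-DM protein exchanges the invariant chain fragment for a peptide, and the transactivator Ciita switches the whole set on in professional antigen-presenting cells. Resident alveolar macrophages, which clear surfactant and particles, are known for low class II compared with dendritic cells.

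The class II share that chose the cells had no gap at the boundary. The lowest member had 0.1609% of its UMIs from the 4 genes and the highest cell outside 0.1607%. The 10 members just inside lay between 0.1609% and 0.1622%, and the 10 cells just outside between 0.1599% and 0.1607%. Within 10% of the boundary there were 128 members above it and 147 other cells below it, and the class is thus a range along a per-cell score. The median member had a share of 0.2553%, or 36 UMIs of the 4 genes, and members ranged from 9 to 231 such UMIs. Only 12 members reached 1%, while 977 stayed under 0.5%, and the highest had 1.772%. The 2 cells dropped at the upper limit had 4.31% and 6.16%, each with 3 of the 8 macrophage genes and 2 or 3 of 11 conventional dendritic cell markers.

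The 4 ranked genes, whose levels the rule used and which are given as a description, stood at 2967, 3211 and 2908 CPM in the members and at 177, 156 and 287 CPM in the rest. Cd74 was at 1673, 1868 and 1451 CPM against 103, 98.5 and 156 CPM. H2-Aa was at 692, 678 and 714 CPM against 37.6, 28.7 and 66.1 CPM, and H2-Eb1 at 234, 258 and 285 CPM against 10.8, 7.89 and 22.0 CPM. The members thus had a like level in every library, while the rest was highest at 1.5 ppm. Neutrophils, which should lack these genes, had 130 CPM over 62 cells (15 of them, 24.2%, with a UMI, at a median depth of 2435 UMIs). In the 1.5 ppm library, which held 57 of those neutrophils, their level was 128 CPM, below the 287 CPM of the rest. How much of the level of the rest came from free RNA was not tested.

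Each library gave a similar share of its ranked macrophages to the class. It was 9.70% in air (317 of 3267, interval 8.71 to 10.8%), 9.29% at 1 ppm (196 of 2110, 8.08 to 10.6%) and 10.4% at 1.5 ppm (565 of 5419, 9.63 to 11.3%), and the intervals overlapped. Lower in the range the libraries separated. Cells with a share of 0.05% or more were 21.5%, 19.2% and 28.6% of the ranked macrophages, whereas at 0.3% or more they were 3.64%, 3.74% and 3.64%. With the top 20% kept in place of the top 10%, the class took 17.2%, 16.1% and 23.2% of the libraries. With each cell thinned to 5000 UMIs, 38.8% (37.2 to 40.5%), 34.2% (32.2 to 36.2%) and 48.3% (47.0 to 49.6%) of ranked macrophages had any class II UMI, against 54.8%, 48.9% and 62.6% unthinned. The 1.5 ppm library thus had the largest share of macrophages with any class II UMI, while at the high end the intervals of the libraries overlapped. The mitochondrial limit removed 1816, 990 and 659 barcodes, so it weighed least on the 1.5 ppm library.

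**Figure D1:**
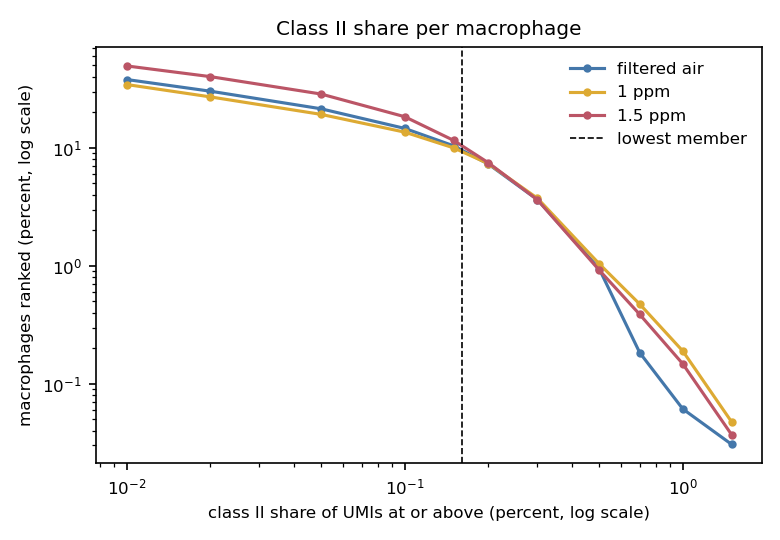
Percent of ranked macrophages (y axis, log scale) whose share of UMIs from the 4 class II genes is at or above the value on the x axis (percent, log scale), with 1 line per library and a dashed line at the lowest member. The 1.5 ppm line lies above the others at low shares (49.5% against 38.0% and 34.5% at 0.01%) and meets them from 0.2% on, and at 0.7% or more air had 6 cells and 1 ppm had 10.

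The macrophage genes of the label were required by the filter, so their presence is given as a description. The 8 alveolar macrophage genes summed to 11346, 13099 and 9953 CPM in the members and 11502, 13278 and 9161 CPM in the rest, and the median member had a UMI of 7, 7 and 6 of them. The markers given for the class were H2-Aa, H2-Ab1, Cd74, Ciita and Epcam, of which H2-Aa, H2-Ab1 and Cd74 were ranked on and are higher by the choice itself. Ciita and Epcam were not used by the rule, and both were higher in the members than in the rest in every library. Members and marker lists were chosen with earlier results of these data known, so this too is a description and no independent check of the label. Several genes that define other class II cells had few UMIs. Flt3 and Ccr7 were at 0 by the rule. The 9 B cell markers summed to 0.22, 2.06 and 0.62 CPM in the members and 0.49, 0.47 and 0.59 CPM in the rest. Igkc and Pax5 were at 0 in both. Zbtb46 had 5, 5 and 14 UMIs in the members. Clec9a was at 7.78, 7.05 and 10.2 CPM against 8.66, 7.13 and 10.6 CPM, and Batf3 at 7.56, 17.9 and 11.3 CPM against 8.71, 16.3 and 11.0 CPM. Cd209a at 1.5 ppm had 9 UMIs in the members and 0 in the rest. A UMI of a selected dendritic or B cell marker was found in 159 members and 1606 cells of the rest. The 11 conventional dendritic cell markers summed to 483, 557 and 466 CPM against 457, 501 and 421 CPM in the rest, nearly all of it from Naaa and Cd24a. A list of interstitial or C1q macrophage markers differed more, with 14.9, 115 and 66.3 CPM in the members against 24.5, 12.2 and 20.8 CPM in the rest. In the members, 9 cells had 5 or more UMIs of C1qa, C1qb and C1qc (0, 3 and 6 by library), as did 22 cells of the rest (11, 0 and 11). Values without these cells are given below for several genes. No doublet caller was run, and 3 members had a barcode that also occurred in another library.

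Outside the 4 ranked genes, few genes separated members from the rest by size. A gene was counted when it was at least 1.5-fold higher or lower in all 3 libraries, with 20 CPM or more on the higher side in each and 100 UMIs in all. Of 6429 genes measured at that level, 8 were higher (0.124%) and 2 were lower (0.0311%). The higher genes were Ciita, H2-DMb1, S100a4, Epcam, Cbfa2t3, S100a6, Timp2 and Hr, and the lower genes were Cd36 and Scd1. The same cells and the same RNA that chose the class gave these values, so they describe the class and were not tested.

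Ciita, the master regulator of class II transcription, had the largest ratio of the 8 higher genes. Its level was 34.7 CPM in members and 4.87 CPM in the rest after air, 29.9 and 4.43 CPM after 1 ppm, and 52.7 and 12.4 CPM after 1.5 ppm. The log2 ratios were 2.83, 2.76 and 2.10 (ratios 7.12, interval 5.76 to 8.78; 6.76, 5.21 to 8.75; and 4.27, 3.80 to 4.79). Both members and rest were highest at 1.5 ppm. After thinning, 16.1%, 13.3% and 23.5% of members had a Ciita UMI against 2.48%, 1.93% and 5.73% of the rest (unthinned 32.8%, 33.2% and 44.3% against 5.26%, 5.80% and 13.9%). Among the neutrophils 1 of 62 (1.61%) had one.

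The peptide-loading gene H2-DMb1 was also among the 8 higher genes. It was at 180, 213 and 189 CPM in the members and 61.1, 64.5 and 66.4 CPM in the rest, with log2 ratios of 1.56, 1.73 and 1.51. Its values lay close together in the 3 libraries on both sides. No UMI of it was found in the 62 neutrophils, whose median depth was 2435 UMIs. H2-DMb1 has a close copy, H2-DMb2, so their reads may have been divided unevenly. The partner chain H2-DMa differed less, at 200, 217 and 217 CPM against 137, 154 and 130 CPM (log2 ratios 0.55, 0.49 and 0.74).

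The list of 11 loading and processing genes includes H2-DMb1 and H2-DMa. Of these 11 genes, 9 had 100 UMIs or more, H2-DMb1 was counted as higher and 7 were above the rest in all 3 libraries, where 19.2% of the 12962 genes with 100 UMIs were. The list's median log2 ratios were 0.15, 0.21 and 0.43, against medians of 0.00, 0.04 and 0.01 over those 12962 genes. Ifi30, a thiol reductase that unfolds antigen, had log2 ratios of 0.15, 0.31 and 0.43. Ctss, the protease that trims the invariant chain, had 0.08, 0.11 and 0.34. The H2-DM inhibitor gene H2-Oa had low counts, at 2.89, 1.76 and 1.12 CPM against 1.04, 0.88 and 0.45 CPM, with ratios of 2.78, 2.00 and 2.48 whose interval included 1 at 1 ppm (0.681 to 4.89). H2-DMb2 had ratios of 1.70, 1.14 and 1.80. The general lysosomal proteases Ctsl (-0.30, -0.21 and 0.09) and Lgmn (-0.11, 0.09 and -0.05) had log2 ratios on both sides of 0.

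Among the regulators Ciita alone was counted. Of 15 class II regulators, all with 100 UMIs, 6 were above the rest in all 3 libraries, and the list's medians were 0.05, -0.01 and 0.06. The DNA-binding RFX subunit gene Rfx5 had log2 ratios of 0.53, 0.20 and 0.23 at under 10 CPM. Its partners Rfxap and Rfxank, the NF-Y genes Nfya, Nfyb and Nfyc, and Creb1 had log2 ratios between -0.20 and 0.42. Spi1, the macrophage factor PU.1, was at 385, 438 and 400 CPM in members and 393, 461 and 379 CPM in the rest. Irf1, an interferon-induced factor, had log2 ratios of -0.03, -0.17 and 0.07. Marchf1, a ligase that removes class II from the surface, had 0.11, -0.01 and -0.04.

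The upstream sequence of class II genes carries conserved elements bound by RFX and NF-Y, to which Ciita docks. The 150 bases before the start are shown for 2 ranked genes, the loading gene H2-DMb1 and, for comparison, Epcam, because these 4 genes were high together. The bases are RefSeq's for build GRCm38.p6, 5′ to 3′ on the gene's strand, and capitals mark a match to the Y box core TGATTGG or the X box (AGNAAC, then NN, then ATG). H2-Aa lies at chr17:34287824-34287973 (minus strand), H2-Eb1 at chr17:34305717-34305866, H2-DMb1 at chr17:34153041-34153190 and Epcam at chr17:87635829-87635978 (plus strand).
H2-Aa: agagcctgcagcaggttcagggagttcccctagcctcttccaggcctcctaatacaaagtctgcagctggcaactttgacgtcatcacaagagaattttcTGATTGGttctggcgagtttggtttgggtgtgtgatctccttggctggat
H2-Eb1: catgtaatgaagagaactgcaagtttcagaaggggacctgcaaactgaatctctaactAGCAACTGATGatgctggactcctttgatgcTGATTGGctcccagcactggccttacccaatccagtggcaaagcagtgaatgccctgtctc
H2-DMb1: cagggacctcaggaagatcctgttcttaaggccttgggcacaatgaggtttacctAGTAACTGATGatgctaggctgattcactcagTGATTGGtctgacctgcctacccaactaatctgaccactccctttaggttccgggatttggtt
Epcam: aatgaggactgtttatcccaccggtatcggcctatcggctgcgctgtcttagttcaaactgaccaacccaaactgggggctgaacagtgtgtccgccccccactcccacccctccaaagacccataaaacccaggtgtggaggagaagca
The Y box match began 50, 61 and 63 bases before the start in H2-Aa, H2-Eb1 and H2-DMb1. The X box match began 92 bases before the start in H2-Eb1 and 95 in H2-DMb1. Epcam had neither in this window. On either strand of the 250 bases before the start, TGATTGG was found in 7.23% of 32851 RefSeq promoters, the X box letters in 0.715% and both in 0.0609%. Of 9 class II genes looked up, 8 had an entry, 7 of these held the Y box letters and 4 held both, while neither start of H2-DMa held them. A match describes the letters and not the binding of a factor.

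Epcam, a cell adhesion protein best known from epithelium, was counted as higher among the members. It was at 107, 97.8 and 205 CPM in the members and 51.2, 38.6 and 100 CPM in the rest (log2 ratios 1.06, 1.35 and 1.03; ratio intervals 1.89 to 2.31, 2.24 to 2.86 and 1.94 to 2.16). Members were above the rest within each library, and the rest at 1.5 ppm lay between the members of the air and 1 ppm libraries. After thinning, 39.4%, 36.2% and 59.8% of members had an Epcam UMI against 20.5%, 16.2% and 35.3% of the rest, and unthinned the members of the air library reached 65.9% against 42.1%. Among neutrophils 2 of 62 (3.23%) had one, but at a lower depth (median 2435 UMIs), so that share is not like for like. The 11 airway and alveolar epithelial markers summed to 48.9, 28.5 and 25.3 CPM in the members and to 75.2, 53.8 and 1024 CPM in the rest, and Krt18 was at 0 in the members of every library. Of 8 epithelial-type adhesion genes with 100 UMIs, Epcam alone was counted and 4 were above the rest in all 3 libraries, among them the tight junction gene Cldn1 (log2 ratios 0.57, 0.35 and 0.86).

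**Figure D2:**
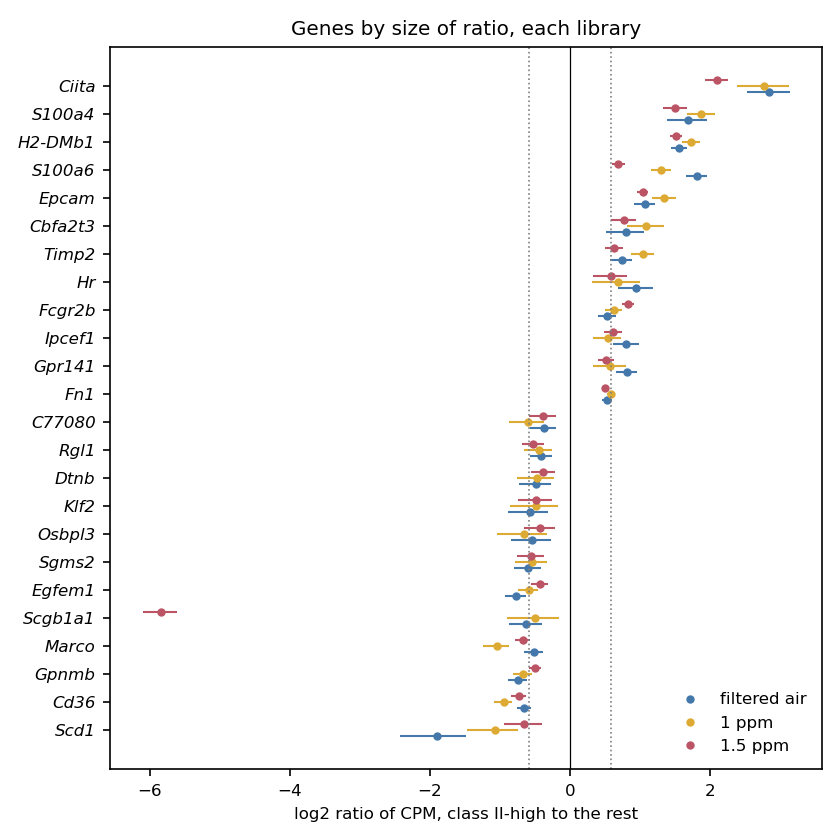
Log2 ratio of CPM, members to the rest (x axis), for the 12 genes higher and 12 lower by the rule of size, with 1 point per library and bars for the 95% counting interval; dotted lines mark 1.5-fold. Ciita lies farthest to the right (2.10 to 2.83), and the 1.5 ppm point of Scgb1a1 farthest to the left (-5.84), where 27 cells of the rest had 50 or more secretoglobin UMIs.

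S100a4 and S100a6, calcium-binding proteins common in monocytes and motile cells, were higher in the members. S100a4 was at 30.7, 87.2 and 42.5 CPM against 9.63, 23.8 and 15.0 CPM (log2 ratios 1.68, 1.88 and 1.50). S100a6 was at 112, 145 and 129 CPM against 32.2, 59.1 and 79.9 CPM (1.81, 1.30 and 0.69). For S100a6 the members were alike while the rest was higher with ozone. Each gene was found in a minority of members. After thinning, 9.46%, 19.9% and 11.7% of members had an S100a4 UMI against 3.798%, 7.158% and 5.605% of the rest. For S100a6 it was 19.87%, 25.51% and 23.36% against 8.071%, 12.17% and 13.56%. Unthinned, 17.98%, 29.08% and 20.88% of members had an S100a4 UMI and 29.02%, 37.76% and 33.45% an S100a6 UMI. At 1 ppm the 5 richest members held 35.4% of the S100a4 UMIs. Without the cells holding C1q UMIs the log2 ratios were 1.71, 1.65 and 1.34 for S100a4 and 1.85, 1.09 and 0.61 for S100a6.

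Cbfa2t3 encodes a transcriptional corepressor, Timp2 a metalloproteinase inhibitor and Hr a nuclear corepressor. Cbfa2t3 was at 29.4, 42.3 and 38.4 CPM against 17.0, 20.1 and 22.6 CPM. Timp2 was at 85.6, 102 and 73.3 CPM against 51.5, 49.5 and 47.5 CPM. Hr was at 36.2, 24.7 and 20.3 CPM against 18.9, 15.6 and 13.6 CPM and sat at the fold itself in the 1.5 ppm library. It dropped below the fold under several of the settings tried, as the closing section lists. The next genes by size stayed under the fold in at least 1 library. They were Ipcef1, Fcgr2b, Gpr141 and Fn1. Fcgr2b, the inhibitory receptor for immune complexes, was at 125, 170 and 150 CPM against 86.9, 111 and 84.7 CPM. Fibronectin, Fn1, was at 392, 737 and 684 CPM against 272, 492 and 483 CPM, so that both members and rest were higher with ozone.

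Cd36 and Scd1 were the 2 genes counted as lower. Cd36, a receptor for oxidised lipid, was at 203, 155 and 96.8 CPM in the members and 320, 300 and 161 CPM in the rest (log2 ratios -0.66, -0.95 and -0.73), and the members were below the rest in every library. Scd1, a fatty acid desaturase, was at 8.89, 19.4 and 14.8 CPM against 34.0, 41.4 and 23.5 CPM (-1.90, -1.08 and -0.66). With cells thinned before ranking, both fell short of the fold in 1 library or more. Marco, a scavenger receptor for particles and 1 of the 8 genes of the macrophage filter, was at 113, 73.4 and 93.3 CPM against 162, 153 and 149 CPM. Gpnmb, a glycoprotein of lipid-laden macrophages, was at 108, 132 and 141 CPM against 182, 212 and 199 CPM. Marco and Gpnmb lay below the rest in each library but short of 1.5-fold in at least 1. Sgms2, Klf2, Egfem1, Osbpl3, Rgl1, Dtnb and C77080 came next, with log2 ratios between -0.78 and -0.38. The secretoglobin Scgb1a1, a product of airway club cells, also entered this ranking, at 35.6, 19.7 and 17.2 CPM against 55.4, 28.2 and 994 CPM, and without the 31 cells of 50 or more secretoglobin UMIs its median log2 ratio was 0.00168.

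Ciita, Epcam and Cd36 also differed below the top 10% of the ranking. From macrophages with no class II UMI to the top 1%, Ciita went from 1.95 to 39.0 CPM in air, 1.64 to 40.0 CPM at 1 ppm and 4.53 to 71.6 CPM at 1.5 ppm. Epcam went from 43.0 to 138, from 31.8 to 123 and from 85.7 to 309 CPM. Both were higher in the intermediate bins than in cells with no class II UMI, for example 77.4, 59.1 and 124 CPM for Epcam between the 75th and 90th percentile. Cd36 went the other way, from 338 to 151, from 348 to 87.5 and from 180 to 82.7 CPM. S100a6 and Scd1 followed the ranking from bin to bin in air, but not in every ozone library. In air S100a6 rose from 26.03 to 132.6 CPM and Scd1 fell from 35.79 to 5.199 CPM. At 1 ppm Scd1 also fell from bin to bin, from 46.72 to 10.0 CPM. S100a6 at 1 ppm was lower between the 75th and 90th percentile (60.86 CPM) than in the bin below (79.66 CPM). At 1.5 ppm S100a6 lay between 71.7 and 88.2 CPM up to the 95th percentile and then at 153 and 350.0 CPM, and Scd1 was at 24.9 CPM in the first bin and 22.3 CPM in the top 1%. The top 1% held 32, 24 and 50 cells, so its intervals are wide.

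**Figure D3:**
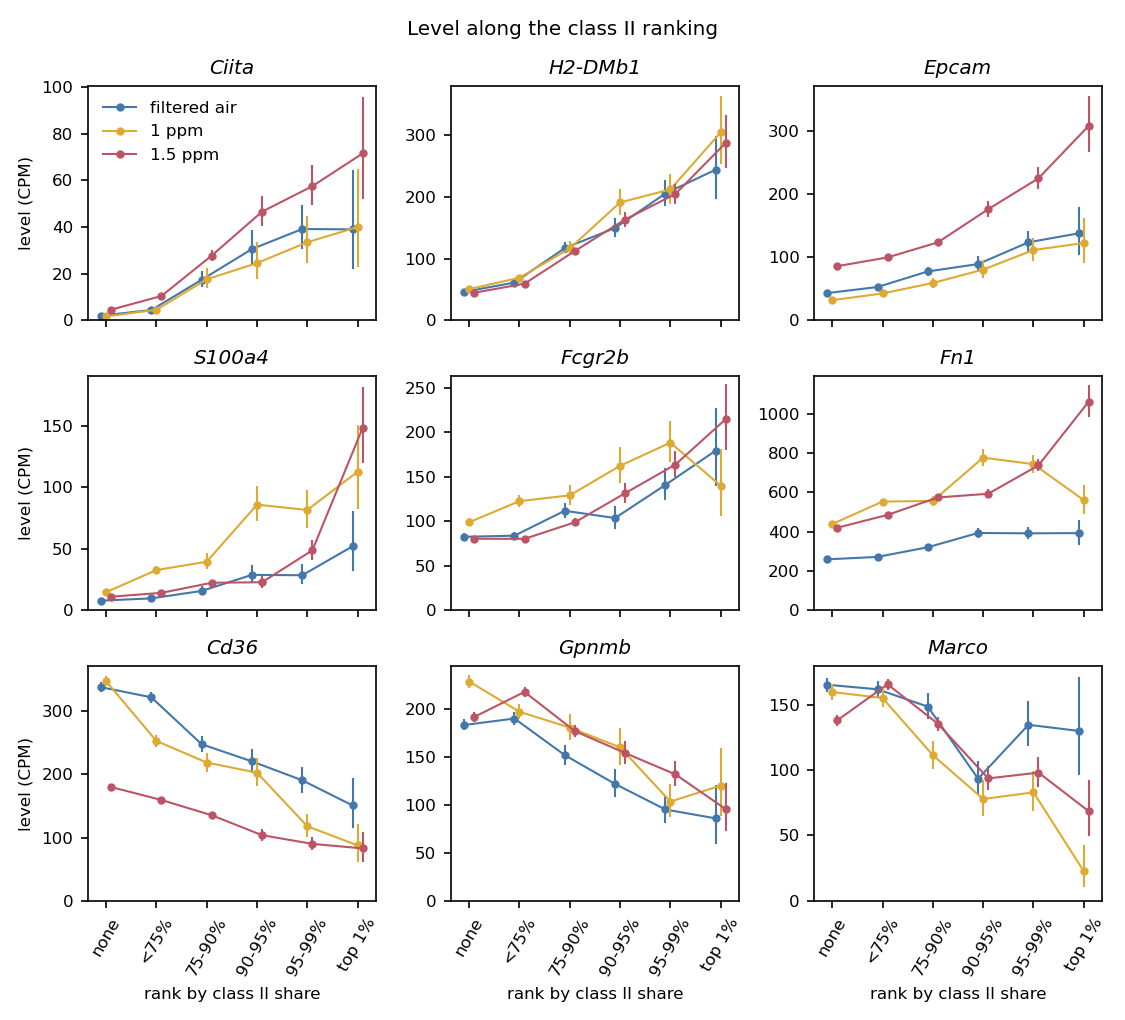
Level in CPM (y axes, linear from 0) of 9 genes in 6 bins of the class II ranking (x axes), from cells with no class II UMI to the top 1%, with 1 line per library and bars for the 95% Poisson interval. Ciita, H2-DMb1 and Epcam are higher in the upper bins of every library and Cd36 and Gpnmb lower. Marco in air is at 165 CPM in the first bin and 130 CPM in the last. It goes from 160 to 22.5 CPM at 1 ppm and from 138 to 68.4 CPM at 1.5 ppm.

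The ranking and the measurement shared UMIs, so cells were also chosen on a random 50% of their UMIs and measured on the remaining ones. The log2 ratios were then 2.67, 2.88 and 2.31 for Ciita, 1.54, 1.65 and 1.50 for H2-DMb1 and 1.03, 1.21 and 0.97 for Epcam, and 6 of the 8 higher genes were again counted. H2-Aa, a ranked gene, had 4.01, 4.47 and 3.28 against 4.20, 4.56 and 3.43 when all UMIs were used. As a description of likeness over single cells, thinned to 5000 UMIs, the Spearman correlation with the summed class II genes was 0.27, 0.27 and 0.29 for H2-DMb1, 0.21, 0.19 and 0.23 for Ciita and 0.17, 0.15 and 0.18 for Epcam, over 3267, 2110 and 5419 cells. Fn1, Gpr141, Timp2, S100a6 and Cd52 came next, at 0.09 to 0.15. These cells share a library, and the correlations are weak.

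Other gene groups were described by how many members lay on 1 side of the rest in all 3 libraries; over the 12962 genes that was 19.2% above and 13.6% below. Cholesterol synthesis had 18 of 20 genes above and none counted, with medians of 0.36, 0.39 and 0.33. Its members included the isoprenoid isomerase gene Idi1 (53.6, 76.6 and 137 CPM against 37.4, 47.2 and 100.5 CPM) and the squalene epoxidase gene Sqle (log2 ratios 0.42, 0.77 and 0.52). Targets of the oxysterol receptor LXR had 7 of 10 genes below, medians -0.39, -0.33 and -0.19, and 1 counted as lower, Scd1. The apolipoprotein gene Apoc1 was at 9.34, 21.4 and 9.72 CPM against 16.3, 38.3 and 15.2 CPM, and the phospholipid transfer gene Pltp had log2 ratios of -0.49, -0.71 and -0.14.

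Interferon gamma response genes had 13 of 19 above the rest in all 3 libraries, with medians of 0.38, 0.18 and 0.29 and none counted. The guanylate-binding protein gene Gbp3 was at 2.45, 3.23 and 3.61 CPM against 1.46, 1.82 and 1.91 CPM, with intervals of the ratio that included 1 in air and at 1 ppm. Type I interferon genes had 4 of 13 above, and their medians differed by library, at 1.57, 0.19 and -0.39. Cxcl10, Rsad2 and Ifit2 are all 3 genes induced by interferon. In air, the richest member for each gene held 186 of the 187 Cxcl10 UMIs, 65 of 67 Rsad2 UMIs and 56 of 62 Ifit2 UMIs. Class I presentation genes had 7 of 13 above and medians of 0.13, 0.05 and 0.20. Costimulation genes had 4 of 9 above and 2 below. Cd86, a ligand for T cell CD28, was at 14.7, 22.6 and 18.3 CPM against 9.97, 9.27 and 11.8 CPM, and without the C1q-bearing cells its log2 ratios were 0.65, 0.96 and 0.51. Cd83 was at 31.6, 19.7 and 21.8 CPM against 40.5, 23.4 and 22.0 CPM.

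Alveolar macrophage identity genes had 5 of 25 above and 8 below, with medians of -0.03, -0.06 and 0.08. The eosinophil-associated ribonuclease gene Ear2 was above (1172, 1192 and 863 CPM against 986, 1072 and 625.0 CPM) and the transcription factor Bhlhe41 had log2 ratios of -0.29, -0.33 and -0.06. Genes of recruited or monocyte-derived macrophages had 7 of 16 above, with medians of -0.10, 1.51 and 0.76. Cells holding C1q UMIs were among the members in the ozone libraries. C1qa had 0, 100 and 169 UMIs in the members, and the monocyte chemokine receptor Ccr2, at 6.00, 22.9 and 16.2 CPM against 5.83, 7.01 and 9.07 CPM, was at 6.00, 14.0 and 12.9 CPM without them. The 8 monocyte markers, Ccr2 among them, summed to 80.0, 92.2 and 88.5 CPM in the members. In the rest they summed to 77.95, 89.9 and 74.0 CPM. The monocyte markers Ly6c2 and Plac8 were at 0 in the members of every library. In the larger rest Ly6c2 had 0, 1 and 1 UMIs and Plac8 2, 2 and 0, so these 2 markers do not set members apart from the rest. The remaining lists (Nrf2 and metallothionein, heat shock, inflammatory cytokines, lysosome and alternative activation) had medians between -0.23 and 0.09. Ctsd, the main lysosomal aspartic protease, was below the rest throughout, at 2362, 2326 and 1996 CPM against 2707, 2883 and 2408 CPM.

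Genes of dividing cells differed by library. G2 and M phase genes had medians of -0.41, 0.19 and -0.38 and S phase genes -0.23, 0.22 and -0.30. Mki67, a marker of cycling cells, was at 42.2, 59.3 and 127 CPM in the members and 63.1, 58.9 and 188 CPM in the rest, so that members were lower in air and at 1.5 ppm and level with the rest at 1 ppm. After thinning, 4.73%, 7.65% and 17.5% of members had a Mki67 UMI against 9.19%, 8.05% and 22.7% of the rest (unthinned 11.0%, 12.8% and 23.9% against 14.1%, 13.1% and 31.8%). The median member had 13186, 15087 and 12571 UMIs against 14051, 16133 and 13724 in the rest.

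**Figure D4:**
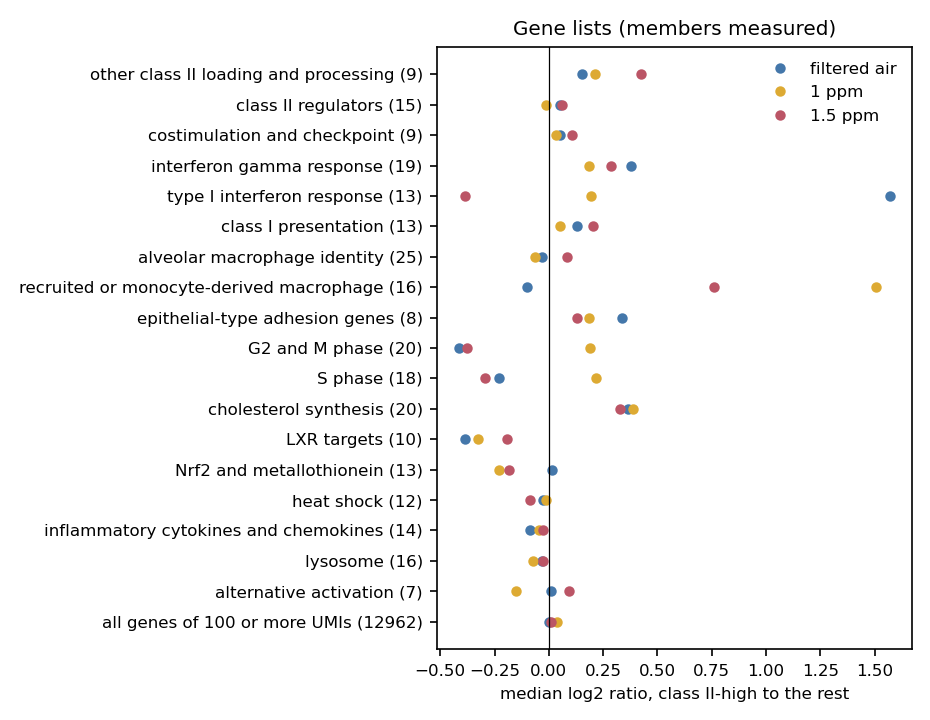
Median log2 ratio of members to the rest (x axis) over the measured genes of each list (y axis, number of genes in parentheses), with 1 point per library. Cholesterol synthesis lies near 0.36 in all 3 libraries, whereas the type I interferon list in air (1.57) and the recruited macrophage list with ozone (1.51 and 0.76) stand apart from the other libraries. Some genes of these 2 lists rest on very few cells. The richest member held 65 of 67 Rsad2 UMIs in air and 80 of 100 C1qa UMIs at 1 ppm.

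Ozone was then compared with air within the members. A gene was counted if it differed 2-fold, reached 50 CPM in 1 of the pair of libraries and had 100 UMIs over both. Both comparisons share the air library. At 1 ppm, 8 of 4080 genes were higher (0.196%) and 6 lower (0.147%) in the members, against 2 (0.0498%) and 5 (0.124%) of 4020 in the rest. At 1.5 ppm, 59 of 4156 were higher (1.42%) and 15 lower (0.361%), against 61 (1.47%) and 15 (0.361%) of 4160 in the rest. Each group being 1 pooled library, these are differences of size with no replicate check.

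The class II genes themselves were nearly level across the members, whose boundary was set on the same genes. The 4 ranked genes had a median log2 ratio to air of 0.15 at 1 ppm and 0.16 at 1.5 ppm in the members, and -0.33 and 0.81 in the rest. Over all ranked macrophages, with no choice of cells, they summed to 439, 433 and 526 CPM. Ciita stood at 7.57, 6.75 and 16.0 CPM and Epcam at 56.2, 44.0 and 110 CPM over the same cells, each highest at 1.5 ppm. H2-DMb1, at 71.9, 78.0 and 77.4 CPM, differed little between the libraries.

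Il1b, the inflammatory cytokine, had the largest ratio to air at 1 ppm among the counted genes given here, at 13.3 CPM in air, 53.4 at 1 ppm and 66.9 at 1.5 ppm (log2 ratios 1.99 and 2.31; 1.23 and 2.03 in the rest). The carbonic anhydrase gene Car4, a gene of the alveolar macrophage identity list, was at 158, 430 and 478 CPM (1.44 and 1.59). In the rest Car4 was at 183.8, 412.5 and 407.9 CPM. Colec12, a scavenger receptor, was at 37.4, 120 and 39.1 CPM, high at 1 ppm only, and with the top 5% kept its log2 ratio at 1 ppm was 0.06. In the rest Colec12 was at 54.8, 89.7 and 38.7 CPM. S100a4 also passed the fold at 1 ppm, at the levels given above (1.50, and 1.28 without the C1q-bearing cells). The linker histone gene H1f5, which has near copies, was at 23.6, 59.3 and 118 CPM and the histone gene H2ac24, with the same limit, at 12.9, 41.1 and 58.6 CPM. In the rest H1f5 was at 27.2, 33.9 and 163.9 CPM and H2ac24 at 13.05, 17.84 and 91.45 CPM. Without G2 and M phase cells H2ac24 had a log2 ratio of 0.84 at 1.5 ppm in the members, and Car4 0.97 at 1 ppm, both under the fold. Apoe, a lipid carrier, was at 14.5, 40.8 and 65.5 CPM, but its 5 richest members held 77.6% of the UMIs at 1.5 ppm, and without the C1q-bearing cells the 1.5 ppm level was 21.0 CPM (log2 ratio 0.52, no longer counted).

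Of the counted genes given here, the metallothionein gene Mt2 was furthest below air at both doses. Metallothioneins bind zinc and buffer oxidants. Mt2 was at 323 CPM in air, 49.9 at 1 ppm and 39.9 at 1.5 ppm (log2 ratios -2.69 and -3.01; -2.21 and -2.06 in the rest), and Mt1 at 1636, 491 and 430.0 CPM (-1.74 and -1.93; -1.20 and -1.40 in the rest). Both ozone libraries lay below air. Before any comparison with air, the members of the air library were above the rest for both genes (323 against 253 and 1636 against 1245 CPM), and at 1.5 ppm below it. Hmox1, the haem-degrading enzyme induced by oxidants, was at 434, 164 and 153 CPM in the members and 386.6, 170.0 and 187.1 CPM in the rest. Slc7a11, the cystine transporter, was at 57.6, 15.0 and 46.2 CPM in the members and 73.7, 23.2 and 39.1 CPM in the rest. With thinned cells its log2 ratio at 1 ppm in the members was -0.98, just under the fold. The phosphatase gene Dusp6 was at 53.8, 22.0 and 26.9 CPM in the members and 53.0, 26.2 and 26.4 CPM in the rest. The RNA-binding protein gene Rbfox1, at 75.6, 51.4 and 26.7 CPM, and the peroxisomal thiolase gene Acaa1b, at 81.6, 45.2 and 29.8 CPM, passed the fold only at 1.5 ppm. In the rest Rbfox1 was at 64.24, 45.77 and 18.65 CPM and Acaa1b at 104.2, 63.9 and 33.48 CPM.

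**Figure D5:**
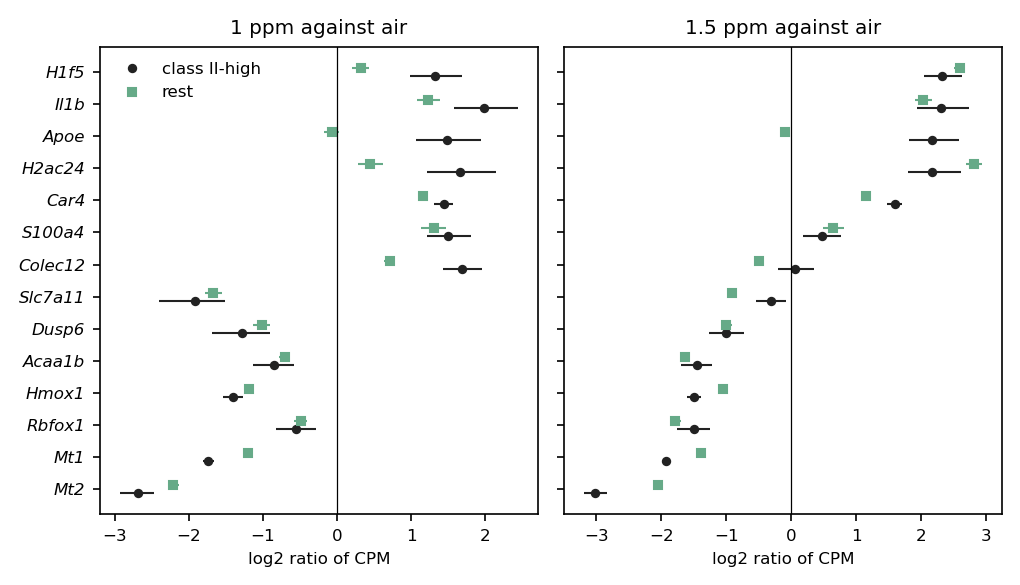
Log2 ratio of CPM to the air library (x axes) for 14 genes named by size, at 1 ppm (left) and 1.5 ppm (right), with circles for members, squares for the rest and bars for the 95% counting interval. Mt2 lies farthest to the left in the members of both panels (-2.69 and -3.01), and Apoe at 1.5 ppm is at 2.16 in the members and -0.10 in the rest.

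By gene group, the dividing-cell lists were above air in the members of both ozone libraries. At 1 ppm, 13 of 15 G2 and M phase genes and 14 of 14 S phase genes were above air (medians 0.44 and 0.36), where 46.1% of all 7840 genes were; in the rest it was 4 of 20 and 2 of 18 (medians -0.13 and -0.15), where 40.3% of 11584 were. At 1.5 ppm it was 20 of 20 and 17 of 17 in the members (medians 1.04 and 0.46), where 44.2% of 8906 genes were, and 20 of 20 and 18 of 18 in the rest (1.06 and 0.66), where 44.7% of 12506 were. The difference between members and rest at 1 ppm was not tested. Cells with 3 or more UMIs of the G2 and M phase list were 23.3%, 25.5% and 31.5% of the members and 28.0%, 27.9% and 40.1% of the rest. Cholesterol synthesis genes were above air in 15 of 17 and 19 of 19 (medians 0.42 and 0.73), and 10 of 10 Nrf2 and metallothionein genes were below air at 1 ppm (median -0.79), 4 of them past the fold. In the rest, cholesterol synthesis genes were above air in 18 of 20 and 20 of 20 (medians 0.36 and 0.81), and 12 of 13 Nrf2 and metallothionein genes were below air at 1 ppm (median -0.88), 4 of them past the fold.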

How the data were processed

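Per the labels, cells were captured with a 10x Genomics kit that counts transcripts by UMI. The authors deposited raw UMI counts for each gene in each barcode. Per the file headers these were produced by Cell Ranger 8.0.0, and the submitters' processing notes name build GRCm39. The sources used here do not say if introns were counted. The counts list 33696 genes under the deposited symbols. UMIs mark molecules, and the intervals assume that each was captured independently.

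From the counts, barcodes were filtered and ranked by the rule stated at the opening, and UMIs were summed per library for members and the rest. For log2 ratios, 1 UMI was added to both sums before scaling to CPM. Shares of cells with a UMI were also computed with every cell thinned at random to 5000 UMIs. Each group was 1 library, so no test was made. No doublet caller was run and doublets may remain. Neutrophils were barcodes with Cxcr2 and Csf3r UMIs, under 3 of the 8 macrophage genes and at most 10% mitochondrial UMIs.

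The members, the 19 gene lists and the 9 marker lists were chosen with earlier results of these data known. Genes were named by size: 12 higher and 12 lower by the weakest library's ratio, then up to 5 each way for ozone against air, up to 4 from each list, and every class II loading gene and regulator with 100 UMIs, leaving out mitochondrial, ribosomal protein, sex-linked, haemoglobin, antigen receptor and predicted genes. Genes named outside this rule (Ccr2 without C1q cells, Cd52 by likeness) are named as such. Some genes that the rule names are not reported here. The alternatives varied the share kept, the upper limit, ranking within libraries, depth, choice on part of the UMIs, the mitochondrial limit, cell cycle, cells with markers of other types, summing, the level filter and each library. Leaving out cells with C1q or secretoglobin UMIs was chosen after seeing the data. The fold calls were tested on simulated data first. The tools were matplotlib 3.10.9, scipy 1.17.1, numpy 2.4.6 and pandas 2.3.3 under Python 3.11.15.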

Additional observations from a re-analysis of the deposited data

Results flagged for a closer look

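In the following genes, members and the rest differed in opposite directions in different libraries, and that difference was not tested. Cxcl10 had a log2 ratio of 4.02 in air and -2.20 at 1.5 ppm, and Rsad2 had 4.21 in air and -1.36 at 1.5 ppm. Both are interferon-induced. In the air library the richest member for each gene held 186 of 187 Cxcl10 UMIs and 65 of 67 Rsad2 UMIs. At 1.5 ppm the members had 5 UMIs of each gene. In the rest of that library the 5 richest cells held 80% of the Cxcl10 UMIs and 92.95% of the Rsad2 UMIs. Apoe had -1.59 in air and 0.67 at 1.5 ppm, and without the cells holding C1q UMIs it was below the rest in all 3 libraries (-0.57, -0.16 and -0.43). The histone gene H2ac24 had 1.21 at 1 ppm and -0.64 at 1.5 ppm.

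Barcodes that the mitochondrial limit of 10% removed were not otherwise used. Among those that met the other conditions, 12.9% at 1.5 ppm (8 of 62, interval 5.74 to 23.9%) had a class II share at or above that of the lowest member. It was 2.55% in air (19 of 746, 1.54 to 3.95%) and 5.70% at 1 ppm (22 of 386, 3.61 to 8.50%).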

How the results depend on the processing

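No paired analysis was possible because each group is 1 library. With the top 5% kept, the class took 4.90%, 5.02% and 5.02% of the libraries in place of 9.70%, 9.29% and 10.4%, 14 genes were higher and 4 lower than the rest, 13 were higher at 1 ppm and 23 lower at 1.5 ppm. With the top 20% it took 17.2%, 16.1% and 23.2%, 5 genes were higher and 0 lower, and 5 were higher at 1 ppm. The number higher at 1 ppm was also 5 with cells thinned and with CPM averaged over cells. The number lower than the rest was 1 with cells thinned and with choice on 50% of the UMIs, 4 without G2 and M phase cells, 5 without cells holding dendritic or B cell markers, and 7 without either the 1 ppm or the 1.5 ppm library. With no level filter 84 genes were higher and 26 lower than the rest, with 23 and 15 at 1 ppm and 213 and 36 at 1.5 ppm; with 50 CPM it was 4 and 1. With 20 CPM for ozone it was 20 and 13 at 1 ppm and 131 and 24 at 1.5 ppm. The level filters change how many genes are measured, and for the other settings the cause was not tested.

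All 8 higher genes were counted again with the top 5% and without the C1q-bearing cells. Leaving out each library in turn could not lose them, because they had passed the fold and level in every library. With the top 20%, S100a6, Timp2 and Hr were lost. Hr was also lost with no upper limit, the limit applied before ranking, ranking within libraries, thinned cells, choice on 50% of the UMIs, a mitochondrial limit of 5%, without G2 and M phase cells, without cells holding dendritic or B cell markers, at least 5 macrophage markers, without secretoglobin cells, CPM averaged over cells and a rest weighted to the depth of the class. Timp2 was lost in 2 of these and S100a6 in 1. With 50 CPM, Ciita, S100a4, Cbfa2t3 and Hr were below the level filter. Of the lower genes, Cd36 was lost with the top 20% and with cells thinned. Scd1 was lost in these, with the top 5%, with choice on 50% of the UMIs, without G2 and M phase cells, without cells holding dendritic or B cell markers and with 50 CPM. At 1 ppm the log2 ratio of H1f5 was 3.80 with the top 5%, in place of 1.33. Scgb1a1 changed sign without the secretoglobin cells (0.00168). Of the other values, 749 kept to within the limit set and 94 moved. Genes of few UMIs have wide counting intervals, and the 1 ppm library had the fewest members, 196.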

Other observations

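Some genes of the members that were not taken up above had few UMIs. The chemokine gene Ccl17, a product of dendritic cells and some macrophages, was at 0.889, 10.9 and 9.72 CPM in the members against 0.576, 1.73 and 4.36 CPM in the rest. At 1 ppm 6 members carried it, 1 cell held 23 of the 37 UMIs and the 5 richest held 97.3%, and at 1.5 ppm the 5 richest held 62.8%. Irf4, a transcription factor that can drive Ciita in some cell types, was at 4.45, 9.10 and 4.11 CPM against 3.30, 2.99 and 2.95 CPM, and without the C1q-bearing cells its 1 ppm level was 7.42 CPM (log2 ratio 1.35). Irf5, an inflammatory macrophage factor, had log2 ratios of 0.35, 0.40 and 0.39, close together in the 3 libraries. The granulocyte colony-stimulating factor receptor gene Csf3r had 0.39, 0.31 and 0.43 and was below air with ozone, at 40.7, 29.6 and 20.7 CPM in the members. The chemokine gene Ccl4 was at 13.2 CPM in the members at 1.5 ppm against 2.79 CPM in the rest, and 1 cell held 63 of its 106 UMIs.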
